A study of Mus musculus with 6 samples.

Results

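The matrix metalloproteinases and their inhibitors were followed in tumor-associated macrophages (TAMs) from fibrosarcomas of mice with and without Cre recombinase in the myeloid lineage. The members were 10 listed genes, Mmp2, Mmp12, Mmp13, Mmp14, Mmp19, Timp1, Timp2, Timp3, Adam8 and Adam17, matched by symbol to their Ensembl identifiers. All 10 were found among the 55421 genes of the count table, and all 10 had enough counts to be tested.

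Matrix metalloproteinases are zinc endopeptidases, most of them made as inactive precursors, that cut collagens, elastin and other proteins of the extracellular matrix. Tissue inhibitors of metalloproteinases (TIMPs) bind the active enzymes and block them, and TIMP-2 also takes part in the activation of pro-MMP-2 at the cell surface by the membrane-bound MMP-14. ADAM proteases are anchored in the membrane and release the outer domains of cytokines, receptors and adhesion molecules, and macrophages of tumors are a known source of enzymes of both families.

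The libraries came from TAMs of mice that carried a floxed Pdcd1 gene, which encodes the inhibitory receptor PD-1. In Pdcd1f/fLysMcre mice Cre recombinase under the lysozyme M promoter deletes this gene in myeloid cells, a lineage that includes neutrophils as well as macrophages, and Pdcd1f/f mice, which carry the same floxed alleles without Cre, were the controls. Tumors were grown from MC17-51 fibrosarcoma cells, named M17 in the labels, implanted under the skin of mice 8 to 12 weeks old, and the collection day was 15. TAMs were live CD45+CD11b+F4/80+Ly6G- cells, and 3 libraries were made for each genotype. The sources do not say that each library came from a single mouse, so the p-values measure the spread between these libraries.

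The libraries held between 41833823 and 51417209 counts, and 3 counts correspond to 0.0583 to 0.0717 CPM, that is, counts scaled to equal library totals, a limit that covers counting error only. Pdcd1 itself was counted 10, 12 and 15 times in the controls and 7, 16 and 11 times with LysMcre, too few to show the deletion. Lyz2, the gene into which Cre is inserted, had 189889 to 242873 counts in the controls and 418 to 503 counts in the Pdcd1f/fLysMcre libraries, which separated the genotypes as labelled. Macrophage markers were abundant, and the summed level of 7 of them, Lyz2 left out, was 5314 to 5952 CPM in the controls and 4548 to 4798 CPM in the Pdcd1f/fLysMcre libraries. Of the 8 macrophage markers fixed in the list, Adgre1, Csf1r, C1qa and Lyz2 were lower. Their part in the values of the members was not tested. Markers of other cells were low, and none was at 0 in all libraries. Those of fibroblasts and fibrosarcoma stroma summed to 73.9 to 81.4 CPM in the controls and 69.3 to 77.6 CPM with LysMcre, where Col1a2 and Fap were lower. The other tested stromal markers did not pass the threshold, with log2 fold changes from -0.78 (Col1a1) to 0.35 (Acta2). Endothelial markers summed to 42.0 to 44.2 and 34.1 to 36.1 CPM, with Pecam1 lower (log2 fold change -0.62). The other tested endothelial markers, Cdh5, Kdr, Vwf and Emcn, were at -0.009, 0.017, -0.028 and 0.023 and did not pass. Neutrophil markers summed to 36.8 to 47.7 and 45.5 to 48.4 CPM, with Ly6g at 0 to 3 counts, T and NK cell markers to 14.1 to 15.8 and 13.2 to 16.4 CPM, and dendritic cell markers to 5.28 to 6.92 and 6.87 to 8.39 CPM, with no gene of these lists past the threshold. The sum of 4 Y-linked genes was 1545 to 1914 normalized counts in the controls against 6267 to 7233 with LysMcre. The level of Xist was 17318 to 26511 against 8530 to 13137. Both were counted in every library and differed between the genotypes, so genotype and the mix of sexes cannot be told apart. In bulk libraries fewer cells of a type and less RNA per cell cannot be told apart either.

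Among the 10 members, Mmp13 was higher and Mmp19 was lower in Pdcd1f/fLysMcre TAMs, and the other 8 did not pass the threshold, an adjusted p under 0.05 in edgeR's two-sided quasi-likelihood test with Benjamini-Hochberg adjustment over 14469 genes. Over all genes tested, 5.43% passed, with 2.42% higher and 3.01% lower. The libraries of the 2 genotypes did not overlap for 3 members, Mmp13, Mmp19 and Timp2, beside 27.2% of all genes tested. Of these members 1 lay higher and 2 lower, beside 14.1% and 13.1% of all genes. At an unadjusted p under 0.05 there were 4 members, the same 3 genes and Mmp12, beside 24.2% of all genes. The median log2 fold change over the members was 0.10, and over all genes it was -0.0026. With 3 libraries against 3 the smallest two-sided p of an exact permutation test is 0.1, and it was reached by Mmp13, Mmp19 and Timp2.

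**Figure D1:**
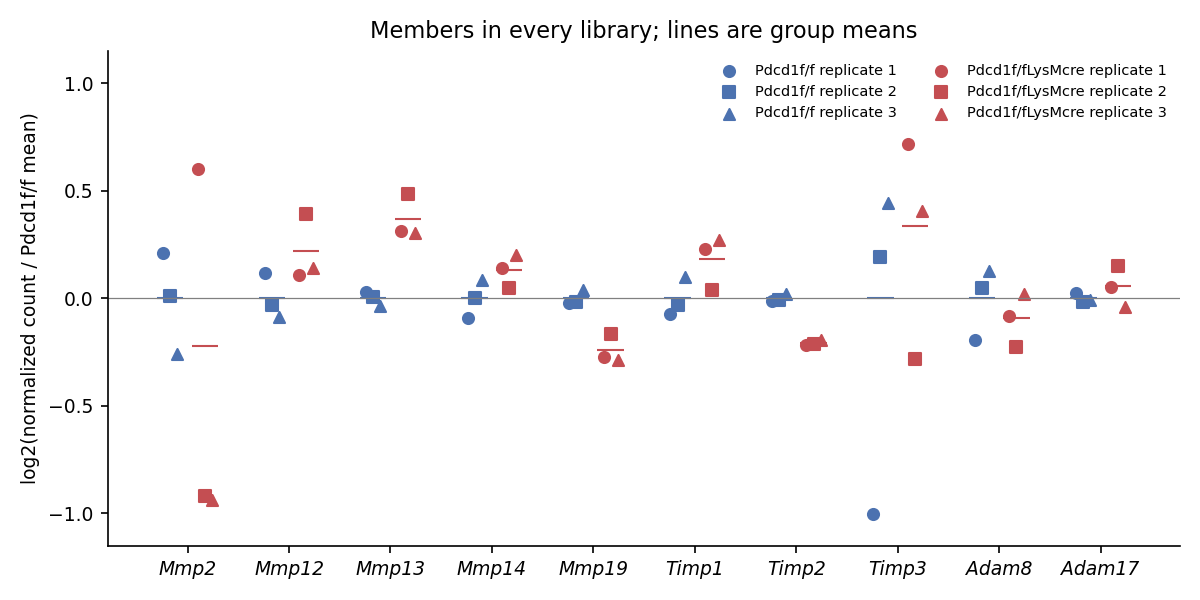
Normalized count of each member in each of the 6 libraries, as the log2 ratio to the Pdcd1f/f mean. Symbols mark the replicate and short lines the group means. The genotypes do not overlap for Mmp13, Mmp19 and Timp2, and the low-count genes Mmp2 and Timp3 scatter most.

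Mmp13, an interstitial collagenase that cuts fibrillar collagen, was the member that rose. In the order of replicates 1, 2 and 3, which is kept for each gene, its normalized counts were 8808, 8664 and 8406 among the controls against 10701, 12050 and 10652 with LysMcre. Every Pdcd1f/fLysMcre library was above every control library. The means were 8626 ± 204 and 11134 ± 793 (SD, n = 3 each), a 1.29-fold difference (log2 fold change 0.37, SE 0.067, 95% confidence interval 0.22 to 0.52, adjusted p = 0.0108). The call was lost without Pdcd1f/f replicate 2 (log2 fold change 0.38, adjusted p = 0.0657) and without Pdcd1f/fLysMcre replicate 1 (0.40, adjusted p = 0.0530). Over the 16 alternative fits the log2 fold change stayed between 0.29 and 0.40.

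Mmp12, the macrophage elastase, lies next to Mmp13 in the metalloproteinase cluster of chromosome 9, 61.05 kb away. Normalized counts of Mmp12 were 5812, 5243 and 5044 in the controls and 5790, 7048 and 5911 in the Pdcd1f/fLysMcre libraries. One Pdcd1f/fLysMcre library, replicate 1, lay just under the highest control library, so the groups overlapped. The means were 5366 ± 398 and 6250 ± 694 (SD, n = 3 each), with a log2 fold change of 0.22 (SE 0.088, interval 0.03 to 0.42, adjusted p = 0.156). Over the 16 alternative fits the log2 fold change ran from 0.11 to 0.27, and it passed in 2 of them. Without Pdcd1f/f replicate 1 the adjusted p was 0.0323 at 0.27, whereas the value was 0.13 without Pdcd1f/fLysMcre replicate 2 (adjusted p = 0.435) and 0.12 with offsets for the GC content and length of each gene (adjusted p = 0.114). Per library, the level of Mmp13 per kb of exon was 4.36 ± 0.23 times that of Mmp12 in the controls and 4.84 ± 0.19 times in the Pdcd1f/fLysMcre libraries (SD, n = 3 each). With the longest transcript as the length these ratios were 2.7 ± 0.14 and 2.99 ± 0.12.

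The other genes of the cluster ranged widely in count. Mmp1b and Mmp20 had 0 counts in every library, Mmp7 had 1 count, Mmp3 had 4 and Mmp1a had 13 in all 6 libraries together. Mmp10 had 839 counts over the 6 libraries, Mmp27 had 3006 and Mmp8 had 11889, set beside 35235 for Mmp12 and 59980 for Mmp13. The annotated gene bodies are chr9:7272514-7283331 for Mmp13 and chr9:7344381-7369499 for Mmp12 on GRCm38, both on the forward strand. The 3′ end of Mmp12 shares 157 exon bases with Mmp1b on the other strand, which had no counts.

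Promoter sequences from RefSeq (GRCm38.p6) were matched for 8 of the 10 members and gave 9 windows of the 250 bases before an annotated start site. The windows of the neighbours Mmp13 and Mmp12 and, for comparison, of Mmp14 are shown because an AP-1 site is a known element of metalloproteinase promoters and several AP-1 genes were measured here. The capitals mark TGANTCA, the AP-1 consensus, searched on both strands. Mmp13 is chr9:7272264-7272513, the Mmp12 windows are chr9:7344147-7344396 and chr9:7347124-7347373, and Mmp14 is chr14:54431348-54431597, all on the forward strand.
Mmp13: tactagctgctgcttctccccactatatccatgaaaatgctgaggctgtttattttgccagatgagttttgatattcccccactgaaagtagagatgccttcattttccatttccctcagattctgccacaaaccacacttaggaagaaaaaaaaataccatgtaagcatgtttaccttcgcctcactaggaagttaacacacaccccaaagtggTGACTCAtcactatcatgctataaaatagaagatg
Mmp12, first start site: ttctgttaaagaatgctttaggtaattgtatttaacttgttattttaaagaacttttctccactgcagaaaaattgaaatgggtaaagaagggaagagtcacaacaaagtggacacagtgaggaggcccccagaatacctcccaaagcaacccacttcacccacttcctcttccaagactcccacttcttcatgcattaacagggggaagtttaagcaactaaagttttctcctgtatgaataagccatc
Mmp12, second start site: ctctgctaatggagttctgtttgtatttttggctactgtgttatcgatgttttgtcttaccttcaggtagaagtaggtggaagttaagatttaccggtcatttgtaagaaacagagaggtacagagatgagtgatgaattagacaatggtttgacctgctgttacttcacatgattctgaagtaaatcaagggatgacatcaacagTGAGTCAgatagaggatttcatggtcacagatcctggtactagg
Mmp14: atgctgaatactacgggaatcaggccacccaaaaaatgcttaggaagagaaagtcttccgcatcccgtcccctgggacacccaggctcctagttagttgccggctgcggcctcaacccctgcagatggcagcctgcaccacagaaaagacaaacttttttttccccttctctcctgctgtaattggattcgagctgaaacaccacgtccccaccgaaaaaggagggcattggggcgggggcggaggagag
The Mmp13 window held TGACTCA from 35 to 29 bases before the start site, and the second Mmp12 window held TGAGTCA from 44 to 38 bases before it. No other member window held the motif, and 6.75% of 32817 mouse promoter windows of this length did. The windows also differed in base composition, with 40.4% G and C in Mmp13, 40.0% and 39.6% in Mmp12 and 55.2% in Mmp14. Those of Timp2 and Adam17 had 68.0% and 70.4%. Annotated exons covered 203 of the 250 bases for Timp2, 118 for Adam17, 40 for Timp3 and 16 in the first Mmp12 window. Those in the Adam17 window belong to another gene, Gm49586. The letters TATAAA stood from 16 to 11 bases before the Mmp13 start site, do not overlap the other motif, and occurred in 12.4% of all windows. A match of letters is a description of the window and not of binding.

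Mmp19, a metalloproteinase of basement membrane proteins that is made by myeloid cells among others, was the member that fell. Its normalized counts were 20104, 20183 and 20966 in the controls and 16893, 18168 and 16731 in the Pdcd1f/fLysMcre libraries. All 3 Pdcd1f/fLysMcre libraries were under the lowest control. The means were 20418 ± 477 and 17264 ± 787 (SD, n = 3 each), and the log2 fold change was -0.24 (SE 0.060, interval -0.37 to -0.11, adjusted p = 0.0465). The direction held in each of 16 alternative fits, with log2 fold changes from -0.29 to -0.22, and the call held in 11. Leaving out Pdcd1f/f replicate 2 or 3, or Pdcd1f/fLysMcre replicate 1 or 3, ended the call, with an adjusted p of up to 0.191 and log2 fold changes of -0.25, -0.22, -0.22 and -0.22. A block for the replicate number also ended it (log2 fold change -0.24, adjusted p = 0.0566). Mmp19 (chr10:128790910-128800824, forward strand) lies 11.5 Mb from Lyz2 on chromosome 10, and 789 of its exon bases (22.3%) are shared with Tmem198b on the other strand, which had 787 to 823 counts. Tmem198b had a log2 fold change of -0.13 (adjusted p = 0.375), and the part of either fact in the result was not tested.

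The level of Mmp13 per kb of exon was 0.559 ± 0.026 times that of Mmp19 in the controls and 0.852 ± 0.022 times in the Pdcd1f/fLysMcre libraries (SD, n = 3 each). The lowest ratio of a Pdcd1f/fLysMcre library was 0.837 and the highest of a control was 0.579. Both genes of this ratio had passed the test in opposite directions, so it is a restatement of their levels and was given no test.

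Mmp14, the membrane-type collagenase that activates pro-MMP-2, had the highest count of the 5 metalloproteinases. Normalized counts of Mmp14 were 38112, 40756 and 43181 in the controls and 44790, 42048 and 46800 in the Pdcd1f/fLysMcre libraries. The lowest Pdcd1f/fLysMcre library was under the highest control. The means were 40683 ± 2535 and 44546 ± 2385 (SD, n = 3 each), and the log2 fold change of 0.13 (SE 0.069, interval -0.02 to 0.29) did not pass (adjusted p = 0.265). With the GC content and length offsets it did pass, at 0.23 (SE 0.036, adjusted p = 2.7e-04), whereas without Pdcd1f/f replicate 1 the value was 0.08 (adjusted p = 0.435). It passed in 2 of the 16 alternative fits, both with these offsets.

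Mmp2, a gelatinase better known from fibroblasts, was counted only 23 to 71 times per library. Its counts were 54, 39 and 33 in the controls and 71, 24 and 23 in the Pdcd1f/fLysMcre libraries, where replicate 1 was the highest of all 6 libraries and the other two the lowest. The log2 fold change was -0.22 (SE 0.40, interval -1.11 to 0.68, adjusted p = 0.779). It ran from -0.93 without Pdcd1f/fLysMcre replicate 1 to 0.03 without replicate 2 or 3 of that genotype, so no direction could be read. The summed stromal markers were 69.3 CPM in Pdcd1f/fLysMcre replicate 1 and 69.4 and 77.6 CPM in replicates 2 and 3, and their part in the values of Mmp2 was not tested.

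Timp2, the inhibitor that also docks pro-MMP-2 to MMP-14, was the member with the narrowest spread. The normalized counts of Timp2 were 29216, 29352 and 29873 in the controls and 25318, 25444 and 25792 in the Pdcd1f/fLysMcre libraries. All 3 Pdcd1f/fLysMcre libraries were under all controls, and the coefficient of variation was 1.18% and 0.962%. The means were 29480 ± 347 and 25518 ± 245 (SD, n = 3 each), with a log2 fold change of -0.21 (SE 0.055, interval -0.33 to -0.08). The adjusted p was 0.0577, just short of the threshold. DESeq2 gave -0.21 with an adjusted p of 0.0089, where 10.6% of all genes passed, whereas offsets for GC content and length gave -0.12 (adjusted p = 0.0725). The call was made in 5 of 16 alternative fits.

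Timp1, a secreted inhibitor induced by cytokines, was counted 775 to 1123 times per library. Its normalized counts were 843, 866 and 948 in the controls and 1039, 909 and 1069 in the Pdcd1f/fLysMcre libraries, where replicate 2 lay under the highest control. The means were 886 ± 55.5 and 1005 ± 85.2 (SD, n = 3 each), with a log2 fold change of 0.19 (SE 0.091, interval -0.02 to 0.39, adjusted p = 0.237). With the GC content and length offsets it was 0.24 (SE 0.068, adjusted p = 0.0208). Timp1 is on the X chromosome, within an intron of Syn1 on the other strand and sharing no exon base with it, and the part of the sex difference above in its values was not tested.

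Timp3, the matrix-bound inhibitor that also blocks ADAM17, was near the limit of detection. It had 10, 19 and 23 counts in the controls and 33, 16 and 25 in the Pdcd1f/fLysMcre libraries, which overlapped. The log2 fold change was 0.36 (SE 0.43, interval -0.59 to 1.30, adjusted p = 0.642). It ran from 0.0092 to 0.64 when single libraries were left out, and no difference was detected. Timp3 lies within Syn3 on the other strand, and Syn3 had at most 1 count in a library. Timp4, the remaining inhibitor of the family, did not reach the expression filter.

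**Figure D2:**
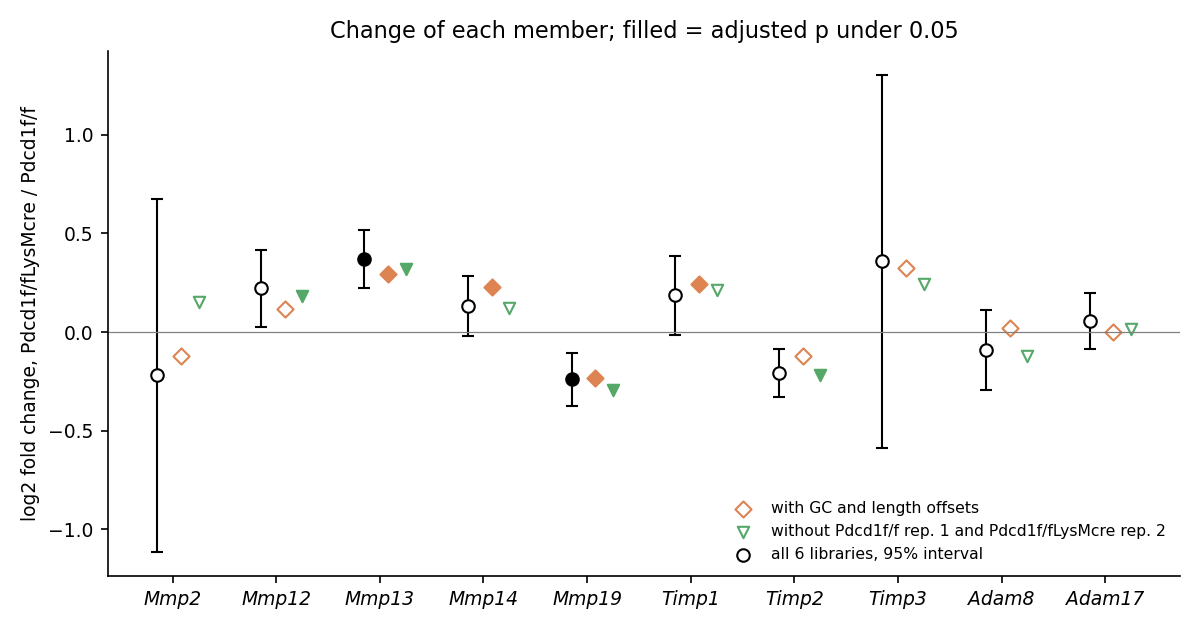
Log2 fold change of each member, Pdcd1f/fLysMcre over Pdcd1f/f, with its 95% confidence interval over all 6 libraries (circles), with offsets for GC content and length (diamonds) and without Pdcd1f/f replicate 1 and Pdcd1f/fLysMcre replicate 2 (triangles). Filled symbols have an adjusted p under 0.05, as Mmp13 and Mmp19 have in each of the 3 fits.

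The inhibitors were also set against the enzymes within each library. The ratio of Timp2 to Mmp14 per kb of exon was 1.17, 1.10 and 1.06 in the controls and 0.865, 0.926 and 0.843 in the Pdcd1f/fLysMcre libraries, without overlap. With the longest transcript as the length the ratio was 0.634 and 0.501, so whether Timp2 stood above Mmp14 in the controls rests on the gene model. The sum of the 3 TIMPs over the sum of the 5 member metalloproteinases was 0.517 ± 0.0045 in the controls and 0.442 ± 0.0126 in the Pdcd1f/fLysMcre libraries (SD, n = 3 each), again without overlap. Timp2 made up 88.3% and 85.2% of the summed TIMP level, so this ratio followed Timp2, which did not pass the test, while Timp1 and Timp3 had log2 fold changes above 0. The mean summed TIMP level was 182 CPM per kb of exon in the controls and 162 with LysMcre, and that of the member metalloproteinases was 353 and 367. The separation of the genotypes did not hold over all 11 tested metalloproteinases, among which Mmp9, not a member, was the most abundant. Their summed level was 1376 ± 61.2 and 1287 ± 64.6, and the ratio of the TIMPs to it was 0.133 ± 0.0043 in the controls and 0.126 ± 0.0032 with LysMcre (SD, n = 3 each), with overlap. The ratio of Timp1 to Mmp12 was 1.35 ± 0.18 and 1.33 ± 0.24 (SD, n = 3 each) and overlapped, and with the longest transcript it was 0.842 and 0.826. The ratios are descriptions, with no test, and RNA ratios are not ratios of active protein.

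**Figure D3:**
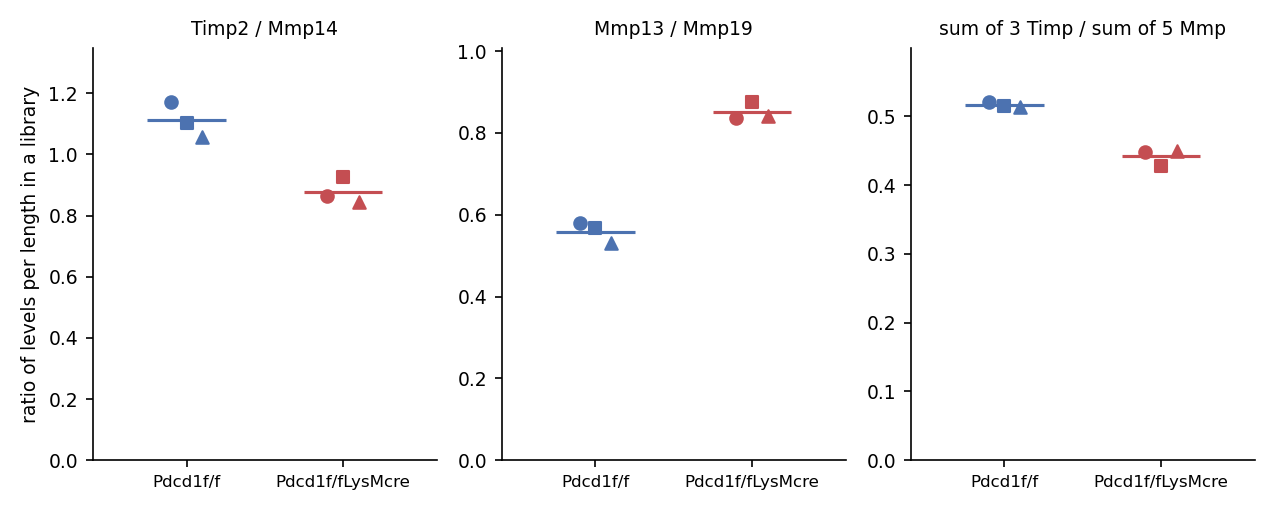
Ratios of levels per kb of exon within each library (points) and their group means (lines), with axes from 0 and only member genes in the sums. The genotypes do not overlap for the 3 ratios shown. Of these, Mmp13 over Mmp19 restates genes already called in opposite directions, and Timp1 over Mmp12, which is not shown, overlaps. The summed TIMP to metalloproteinase ratio is 0.517 in Pdcd1f/f and 0.442 in Pdcd1f/fLysMcre TAMs, and the genotypes overlap once all 11 tested metalloproteinases are summed.

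Adam8, a myeloid protease that sheds adhesion molecules, did not pass the test. Adam8 had normalized counts of 36644, 43240 and 45721 in the controls and 39555, 35817 and 42442 in the Pdcd1f/fLysMcre libraries, which overlapped. The means were 41868 ± 4691 and 39271 ± 3321 (SD, n = 3 each), with a log2 fold change of -0.09 (SE 0.092, interval -0.29 to 0.11, adjusted p = 0.581). The value was 0.02 with the GC content and length offsets, -0.19 without Pdcd1f/f replicate 1 and -0.02 without Pdcd1f/f replicate 3, and it did not pass in any of the 16 alternative fits.

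Adam17, the protease that releases tumor necrosis factor and ligands of the epidermal growth factor receptor, did not pass either. The libraries held 16268, 15802 and 15863 normalized counts of Adam17 in the controls and 16550, 17711 and 15545 in the Pdcd1f/fLysMcre libraries, where replicate 3 was the lowest of all 6. The means were 15978 ± 254 and 16602 ± 1084 (SD, n = 3 each), with a log2 fold change of 0.06 (SE 0.064, interval -0.09 to 0.20, adjusted p = 0.621). Leaving out single libraries gave 0.0086 to 0.097. The iRhom gene Rhbdf2, whose product carries ADAM17 to the cell surface, had a log2 fold change of -0.15 (SE 0.11, adjusted p = 0.447). Frmd8 and Tspan5, listed with it, had -0.10 and 0.14. None of the 5 genes tested in this list passed in edgeR. The other iRhom gene, Rhbdf1, named here after its values were seen, was the 1 of the 5 with an unadjusted p under 0.05. It was also the 1 that DESeq2 called, lower, with a log2 fold change of -0.49 (edgeR adjusted p = 0.0881, DESeq2 adjusted p = 0.0296).

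Levels of different genes can be compared only per length, and they are given here as CPM per kb of exon. In the controls the order was Adam8 (192 ± 21.1), Timp2 (161 ± 1.27), Mmp14 (145 ± 8.6), Mmp19 (123 ± 2.32), Mmp13 (68.7 ± 1.89), Adam17 (47.6 ± 0.80), Timp1 (21.2 ± 1.2) and Mmp12 (15.8 ± 1.21), all SD with n = 3. Mmp2 followed at 0.273 ± 0.045 and Timp3 at 0.049 ± 0.022 (SD, n = 3). No neighbours in this order overlapped over the 3 control libraries. In the Pdcd1f/fLysMcre libraries Mmp14 (158 ± 9.79) stood above Timp2 (138 ± 2.47), and Mmp14 overlapped with Adam8 (178 ± 16.6), while the other places were as in the controls. Mmp9, a gelatinase of myeloid cells outside the members, was far above them at 994 in the controls. With the longest transcript as the length, Mmp14 came first in the controls at 268 and Adam8 second at 243. Adam17 (76.2) then stood above Mmp13 (68.7) and Mmp12 (25.6) above Timp1 (21.4), so the order rests in part on the gene model.

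**Figure D4:**
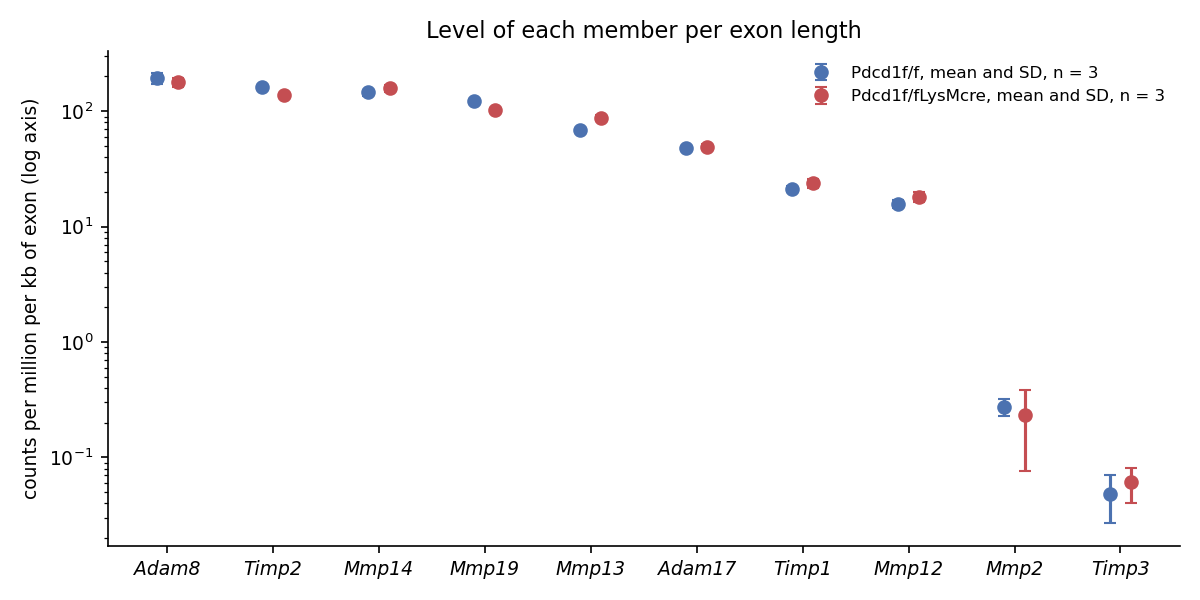
Level of each member as CPM per kb of exon on a log axis, mean and SD over 3 libraries of each genotype, in the order of the controls. Adam8, Timp2, Mmp14 and Mmp19 lie above 100 in both genotypes, whereas Mmp2 and Timp3 lie under 1.

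The deviation of genes from their group mean was set against their GC content, and the sign of the relation differed between libraries. Spearman's rho across 14454 genes, a description, was -0.579 in Pdcd1f/f replicate 1 and -0.490 in Pdcd1f/fLysMcre replicate 2, and from 0.117 to 0.511 in the other 4. Of the 10 members, 7 were ordered alike in the 2 libraries with a negative rho. The share of all genes ordered this way was not computed, so the count is not a trait of the members. Timp3, one of the 7, had only 10 and 16 counts in these 2 libraries. Mmp12 (40.3% G and C), Mmp13 (41.7%) and Adam17 (45.1%) were the highest of their genotype in both, while Mmp14 (54.3%), Timp1 (52.8%), Adam8 (54.9%) and Timp3 (46.8%) were the lowest in both. The other 3 were not ordered this way. Mmp2 (55.3%) was the highest control in replicate 1 and neither the highest nor the lowest with LysMcre in replicate 2, Mmp19 (49.0%) was the lowest control in the first library and the highest with LysMcre in the second, and Timp2 (53.7%) was the lowest control but not the lowest with LysMcre. Without these 2 libraries, when 26.2% of all genes passed, Mmp12 (log2 fold change 0.18, adjusted p = 0.0141) and Mmp13 were called higher, and Mmp19 and Timp2 (-0.22, adjusted p = 0.0016) were called lower. With the GC content and length offsets, when 18.8% of all genes passed, Mmp13, Mmp14 and Timp1 were called higher and Mmp19 was called lower. Only Mmp13 and Mmp19 were called in each of these fits and with all 6 libraries.

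Outside the members, most metalloproteinases were too low to test or did not pass. Of 18 listed, 6 were tested, and 1 fell in edgeR, at an unadjusted p under 0.05 and in DESeq2 alike, with a median log2 fold change of -0.17 beside -0.0026 over all genes. Mmp8, the neutrophil collagenase, fell to 1659 ± 87.4 normalized counts from 2317 ± 86.0 in the controls (SD, n = 3 each), with a log2 fold change of -0.48 (SE 0.072, adjusted p = 0.0039). Of the 9 neutrophil markers, 4 were tested, none passed in edgeR or DESeq2, and 1 had an unadjusted p under 0.05. This was Retnlg, lower in each Pdcd1f/fLysMcre library than in any control (log2 fold change -0.95, adjusted p = 0.11). S100a8, S100a9 and Cxcr2 were at 0.23, 0.12 and 0.03, and the other 5, Ly6g among them, had at most 9 counts in a library. Their part in the value of Mmp8 was not tested. Mmp9 had 165143 ± 9263 and 150932 ± 9910 normalized counts (SD, n = 3 each) and did not pass (log2 fold change -0.13, adjusted p = 0.296). Mmp27 and Mmp25 had log2 fold changes of -0.22 and 0.15 and did not pass. Of 20 other ADAM and ADAMTS genes 12 were tested, and 1 fell, with a median of -0.26. At an unadjusted p under 0.05 there were 1 higher and 5 lower, beside 24.2% of all genes in either direction, and DESeq2 called 3 lower. The gene that fell was Adam22, a member without protease activity, at 142 ± 34.0 and 50.1 ± 26.3 normalized counts (log2 fold change -1.51, SE 0.32, adjusted p = 0.0223). Adam9, Adam10 and Adam15, the most abundant of the list, had log2 fold changes of -0.13, 0.15 and -0.28 and did not pass. A list of other protease inhibitors and related proteins had 5 tested genes, of which none passed in edgeR or DESeq2 and 1, Spint2, had an unadjusted p under 0.05. Spint1 and Spint2, which encode Kunitz inhibitors of serine proteases, had log2 fold changes of -0.13 and 0.35. Pcolce, whose product enhances the cleavage of procollagen, was at 0.14.

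Genes that activate, dock or clear metalloproteinases were listed as a group of 15, of which 14 were tested, 4 rose and none fell in edgeR, with a median of 0.01. At an unadjusted p under 0.05 there were 6 higher and 2 lower, and DESeq2 called 5 higher and 2 lower. Of all genes tested, 24.2% had such a p and 10.6% were called by DESeq2, beside which the counts of each list stand. Cd44, a hyaluronan receptor that can hold MMP-9 and MMP-14 at the cell surface, had 65605 ± 3251 normalized counts in the controls and 84658 ± 3466 with LysMcre (SD, n = 3 each) and rose by 0.37 on the log2 scale (adjusted p = 0.0082). The integrin chains Itgav and Itgb3, which pair as a receptor for vitronectin and osteopontin, rose by 0.34 and 0.36 (adjusted p = 0.0192 for both), and the tetraspanin Cd9 rose by 0.28 on the log2 scale (adjusted p = 0.0192). Plau, the urokinase that starts plasmin formation, was at 0.23 (adjusted p = 0.0528), and Lrp1, the endocytic receptor that clears proteases bound to inhibitors, was at -0.40 (adjusted p = 0.0956). Cd63, a tetraspanin that binds TIMP-1, was at -0.09 (adjusted p = 0.417).

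Of 20 matrix substrates 19 were tested, 1 rose and 1 fell, with a median of -0.05. At an unadjusted p under 0.05 there were 4 higher and 3 lower, and DESeq2 called 2 higher and 1 lower. Spp1, which encodes osteopontin, had 77904 ± 1426 normalized counts in the controls and 93155 ± 5622 with LysMcre (SD, n = 3 each) and rose by 0.26 on the log2 scale (adjusted p = 0.0403). Col1a2, a chain of type I collagen and one of the stromal markers, fell from 132 ± 12.7 to 65.6 ± 12 (log2 fold change -1.0, adjusted p = 0.0121). Fn1, Lamc1 and Vcan had log2 fold changes of 0.21, 0.03 and 0.38 and did not pass. In the list of collagen uptake and other collagen-cutting proteases, 7 of 8 were tested and 1 fell, with 5 lower and 0 higher at an unadjusted p under 0.05 and 2 lower in DESeq2. The gene that fell was the collagen-binding mannose receptor Mrc1, at 137493 ± 7698 and 110490 ± 5253 normalized counts (log2 fold change -0.31, adjusted p = 0.0219). The cathepsins Ctsb, Ctsl and Ctss had log2 fold changes of -0.14, -0.21 and -0.09 and did not pass.

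All 14 AP-1, ETS, RUNX and related regulators of metalloproteinase genes in the list reported here were tested, of which 1 rose and 3 fell, with a median log2 fold change of -0.17. At an unadjusted p under 0.05 there were 3 higher and 5 lower, and DESeq2 called 2 higher and 4 lower. Jun, an AP-1 subunit, had 25009 ± 2596 normalized counts in the controls and 18054 ± 1766 with LysMcre (SD, n = 3 each) and fell by 0.47 on the log2 scale (adjusted p = 0.0167), and Batf, an AP-1 family member, fell by 0.60 on the log2 scale (adjusted p = 0.0189). Maf, a transcription factor of macrophages, fell by 0.26 on the log2 scale (adjusted p = 0.0391). Runx2, a known activator of Mmp13 in bone, rose from 450 ± 30.4 to 608 ± 53.4 normalized counts (log2 fold change 0.43, adjusted p = 0.0343). Fos, Fosb and Junb, the most abundant that did not pass, had log2 fold changes of -0.28, -0.13 and -0.53. No relation between these values and those of Mmp13 or Mmp12 was tested.

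**Figure D5:**
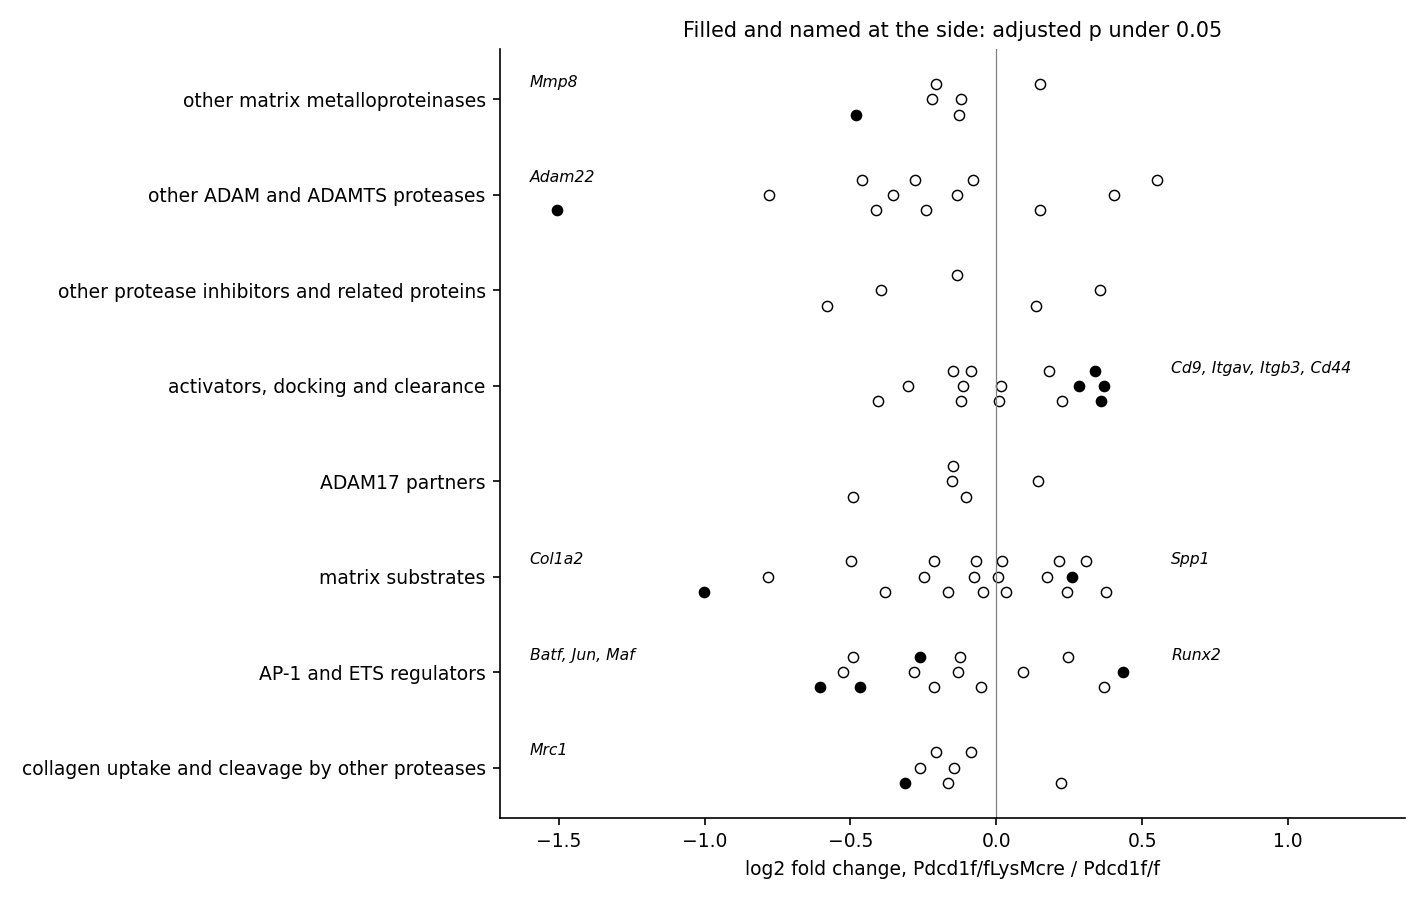
Log2 fold change of the tested genes of the other lists, 1 point per gene, Pdcd1f/fLysMcre over Pdcd1f/f. Filled points have an adjusted p under 0.05 and are named at the side of their direction in order of value. The 4 called genes among activators, docking and clearance lie above 0, and 3 of the 4 called regulators lie under 0.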

How the data were processed

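TAMs of 3 Pdcd1f/f and 3 Pdcd1f/fLysMcre samples, grouped by the labels, were measured by paired-end sequencing of stranded polyA libraries. The authors removed adapters with Cutadapt 2.5, aligned reads to GRCm38 with STAR 2.7.3a and deposited raw counts per Ensembl gene from featureCounts (Subread 1.6.2). Whether reads were counted by strand is not given in the sources used here, which bears on genes that overlap on opposite strands. A second deposited table holds a normalized signal, the counts divided by 1 DESeq2 1.24.0 size factor per library (0.895 to 1.08), which is quoted here as normalized counts, with Mmp2 and Timp3 given as raw counts.

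Raw counts were tested with edgeR 4.0.16 (R 4.3.3) after filterByExpr (minimum count 10, minimum total 15) and TMM normalization, with a two-sided quasi-likelihood test and Benjamini-Hochberg adjustment over 14469 genes. Levels per length used the merged exons of GENCODE M21. Alternatives were RLE size factors, library size alone, other count filters, DESeq2 1.42.0, limma-trend (limma 3.58.1) on log2(value + 1), a replicate block, loess offsets on GC content and length, and libraries left out. Ratios with the longest transcript as the length and sums over all tested metalloproteinases were added after seeing the data. The ratios of Mmp13 to Mmp12 and of Mmp13 to Mmp19 were not among the planned ratios either. The fit was tested on simulated data. The genes named are all members, every listed gene past the threshold and, per list, up to 3 of those not past it. These 3 had the highest mean normalized counts, a rank that can differ from that of levels per length. Genes of the chromosome 9 cluster, genes overlapping a member, the markers and the genes that check the labels were named for that reason. The members, lists and rules were chosen with earlier results of these data known. One gene of the regulator list is not reported here and was left out of that list's counts.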

Additional observations from a re-analysis of the deposited data

How the results depend on the processing

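The call of Mmp13 held in 14 of 16 alternatives and that of Mmp19 in 11, and neither changed direction in any of the 16. The number of genes called, 786 over all genes, was 1951 with the filter of at least 1 count in any library, 1528 with DESeq2, 2720 with GC content and length offsets, 2805 with those offsets and the replicate block, and 3757 without Pdcd1f/f replicate 1 and Pdcd1f/fLysMcre replicate 2. Members called lower, 1 in the report, were 2 with library size alone, with the filter of at least 1 count, with DESeq2 and without both of those libraries, Timp2 being the gene added. Members called higher were 3 with the offsets, with or without the replicate block, and 2 without both libraries. Leaving out each library in turn gave 222 to 3181 genes called (3181, 224 and 354 without Pdcd1f/f replicates 1, 2 and 3, and 222, 370 and 530 without Pdcd1f/fLysMcre replicates 1, 2 and 3), 0 to 2 members higher and 0 to 2 lower. The cause was not tested.

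Deviations of same-numbered libraries correlated at -0.0132, -0.097 and 0.22, within the -0.254 to 0.235 of differently numbered libraries. These values gave no sign of pairing by replicate number and cannot show that it was absent. With the replicate block 1027 genes were called, Mmp13 stayed higher and 0 members were lower, since Mmp19 had an adjusted p of 0.0566. Leaving out single libraries took Mmp2 from -0.926 to 0.0343, it changed sign without Pdcd1f/fLysMcre replicate 2 or 3 and, at 0.15, without both libraries, and Adam8 changed sign with the offsets, at 0.0186 without the block and 0.0193 with it, none of these past the threshold. Mmp2 and Timp3 had only 10 to 71 counts per library. No rescaling moved the median of all genes by more than 0.1.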
